A study of Mus musculus with 9 samples.

Results

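The matrix metalloproteinases (Mmp genes), the ADAM and ADAMTS proteases with the related ADAMTS-like proteins, and the tissue inhibitors of metalloproteinases (Timp genes) were taken by gene symbol: every row whose symbol began with Mmp, Adam or Timp and a digit, or with Adamts. This gave 83 genes of the 23332 gene rows measured, made up of 23 Mmp, 32 Adam, 19 Adamts, 5 Adamtsl and 4 Timp genes. Expression was measured by RNA sequencing in FVB MOE cells, a monoclonal line of secretory epithelial cells from the oviduct of the FVB mouse, which is the counterpart of the human fallopian tube. All 9 samples were from cells held for 48 h in medium free of phenol red with charcoal-stripped serum, which lowers steroid hormones, and then treated for 24 h. In 3 samples the treatment was DMSO, the solvent, at 0.1%. In 3 samples it was 1 nM 17β-estradiol (E2), and in 3 samples it was 100 nM 4-hydroxytamoxifen (4OHT), an active metabolite of tamoxifen that binds the estrogen receptor. The line is a single clone grown without stroma, ciliated cells or a basement membrane from the tissue, and E2 is part of its routine culture medium. The labels number the samples of each condition as replicates 1 to 3 and do not say whether these were separate cultures. The p-values below thus measure only the spread between these samples. Where the replicate number is in the model, that is the spread left once differences between numbers are taken out.

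Apart from the ADAMTS-like proteins, these families share a zinc-dependent catalytic domain or act on one. Matrix metalloproteinases cleave collagens, other matrix proteins and growth factor binding proteins, and most are made as inactive precursors that other proteases activate. ADAMs sit in the plasma membrane and release the outer part of membrane proteins such as growth factor precursors, adhesion molecules and receptors, whereas ADAMTS proteases are secreted and cut proteoglycans, procollagens and other matrix components. ADAMTS-like proteins carry the same accessory domains but no protease domain, and TIMPs bind the catalytic site and block it, with TIMP3 acting on the widest range of these enzymes. In the reproductive tract these genes are known for the matrix turnover of ovulation and of the cycling uterus, and estrogen is known to act on several of them.

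The values were FPKM, which correct read numbers for transcript length and sequencing depth, so levels can be set side by side between genes. The FPKM total was 522517 to 588640 per sample, and 11037 to 11175 gene rows reached 1 FPKM. Read counts were not used here, but the steps between the lowest values gave each sample's depth relative to DMSO replicate 1, which was 1 to 1.185 in DMSO, 0.838 to 1.068 in E2 and 0.821 to 0.923 in 4OHT. Each 4OHT sample was thus shallower than each DMSO sample. Of the markers of secretory oviduct epithelium, the transcription factor gene Pax8 averaged 119 FPKM and Krt8 averaged 406 FPKM in DMSO, but the epithelial adhesion genes Epcam and Cdh1 averaged only 0.03 FPKM and 0.30 FPKM. The summed secretory list (8 of 10 genes expressed) was 1422 to 1565 FPKM in DMSO, 2376 to 2586 FPKM in E2 and 1494 to 1681 FPKM in 4OHT, and 7 of its 8 tested genes rose with E2 in the model given below, where 12.4% of all rows rose. Among them were Krt7 and the progesterone receptor gene Pgr, and without the replicate number in the model 1 of the 7 calls held, that of Krt7 (limma adjusted p = 0.0290). The sum came mostly from keratin genes. Krt7 averaged 310 FPKM in DMSO and 816 FPKM in E2, and Krt18 averaged 496 FPKM and 710 FPKM. The remaining tested gene, Ovgp1, was lower in E2 (-0.29, limma adjusted p = 0.0592) and did not pass. Of 10 stromal markers 4 were expressed, with Col1a2, Col3a1, Lum and Thy1 at or near 0. The proteoglycan gene Dcn rose with E2 by 2.32 on the log2 scale (limma adjusted p = 0.000128, and 0.290 without the replicate number), while Vim, at 1731 FPKM in DMSO, Col1a1 and Postn did not pass. Smooth muscle markers summed to 1516 to 2384 FPKM in DMSO, 2008 to 2826 FPKM in E2 and 1953 to 2513 FPKM in 4OHT, nearly all from Acta2, Tagln and Smtn, while Myh11 and Des stayed below 0.3 FPKM on average. With E2 Acta2 (0.36, limma adjusted p = 0.00357) and Tagln (0.37, 0.00570) rose and Cnn1 fell (-0.43, 0.0155), and none of the 3 calls held without the replicate number. Ciliated cell markers summed to 429 to 554 FPKM in DMSO, 417 to 445 FPKM in E2 and 458 to 584 FPKM in 4OHT, nearly all from the tubulin gene Tubb4b. Of this list Foxj1, the regulator of motile cilia, fell with E2 (-0.40, limma adjusted p = 0.00401) and Rsph1 rose (0.19, 0.0416), neither without the replicate number. Over all samples immune markers summed to 6.39 to 9.94 FPKM. Endothelial markers summed to 0.656 to 0.857 FPKM in DMSO, 1.201 to 1.433 FPKM in E2 and 0.741 to 0.914 FPKM in 4OHT. Of these Kdr alone was tested, and it rose with E2 (0.44, limma adjusted p = 0.00235, and 0.114 without the replicate number). It was also higher in E2 than in 4OHT (0.35, limma adjusted p = 0.00828, and 0.263 without the replicate number). Kdr reached 1 FPKM only in the E2 samples, so its place in the test is not independent of its direction. The part of these shifts in the protease results was not tested.

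Of the 83 genes, 21 were expressed, which here means that 3 or more of the 9 samples reached 1 FPKM. These were 4 of 23 Mmp genes, 6 of 32 Adam genes, 6 of 19 Adamts genes, 2 of 5 Adamtsl genes and 3 of 4 Timp genes. The expressed Mmp genes were Mmp2, a gelatinase; Mmp11, also called stromelysin 3; and Mmp14 and Mmp15, which are membrane-type enzymes. All 6 expressed Adam genes (Adam8, Adam9, Adam10, Adam12, Adam15 and Adam17) belong to the 9 ADAMs with protease activity outside the testis, and none of the 20 remaining ADAMs, most of them known from testis and sperm, nor the 3 neural ADAMs without protease activity (Adam11, Adam22 and Adam23) was expressed. Among the proteoglycan-cleaving ADAMTSs 4 of 7 were expressed, Adamts1, Adamts4, Adamts5 and Adamts9, and none of the 3 procollagen N-propeptidases Adamts2, Adamts3 and Adamts14 was.

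The other 62 genes were mostly silent. Of these, 17 were listed at 0 in every sample, 23 at 0 in some samples and 22 above 0 in all. The maximum over the 9 samples was below 0.1 FPKM in 50 of them and between 0.1 and 1 FPKM in 11. The exception was Mmp19, which reached 1.17 FPKM in DMSO replicate 1 and 1.01 FPKM in 4OHT replicate 1 and lay between 0.68 and 0.973 FPKM elsewhere. Mmp9, the second gelatinase, averaged 0.206 FPKM against 168 FPKM for Mmp2. No gene of these families had an exact 0 beside a value of 1 FPKM or more in the same condition, a pattern found in 306 of all gene rows. Where a gene had a 0 in any sample, its highest value in these families was 0.0422 FPKM. Mmp1a and Mmp1b, Adam1a and Adam1b, Adam6a and Adam6b, and Adam26a and Adam26b are close copies, so reads shared within a pair make the value of either gene uncertain.

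Of the 62 genes that were not expressed, 21 lay in 2 groups of family members on chromosomes 8 and 9. The cluster of 10 Mmp genes on chr9:7272514-7699585 (mm10), which holds the collagenases Mmp1a, Mmp1b, Mmp8 and Mmp13, the stromelysins Mmp3 and Mmp10, the matrilysin Mmp7, and Mmp12, Mmp20 and Mmp27, had 0 expressed genes. Its highest value in any sample was 0.0322 FPKM, for Mmp13 in 4OHT replicate 1, and 3 of the genes were listed at 0 in all samples. Of 12 Adam genes spread over chromosome 8, 1 was expressed, Adam9, and 7 were listed at 0 in all samples.

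The DNA just before the start of transcription was searched for known promoter motifs. RefSeq (GRCm38.p6, the same build as mm10) gave the 250 bases before the start for 52 of the 83 genes, 14 expressed and 38 not. The GC box (GGGCGG on either strand), the known site of the SP1 family, lay in all 14 windows of expressed genes and in 10 of 38 (26.3%) of the others. Of all 27025 genes with such a window 35.4% held it, of the expressed genes of the series 66.6%, and of the genes that were not expressed 26.9%. The AP-1 motif (TGANTCA, which reads the same on both strands in its fixed letters) lay in 0 of 14 windows of expressed genes and in 11 of 38 (28.9%) of the others, namely Mmp1a, Mmp1b, Mmp3, Mmp7, Mmp10, Mmp12, Mmp13, Mmp20, Adam19, Adam25 and Adam29, against 7.82% of all genes, 5.24% of the expressed ones and 9.66% of those not expressed. The TATA box (TATAAA on either strand) lay in 1 of 14, that of Adamts1, and in 12 of 38 (31.6%), against 14.3% of all genes, 7.55% of the expressed ones and 19.2% of those not expressed. The full estrogen response element (GGTCA, any 3 bases, then TGACC, the same on both strands) was in none of the 52 windows, and in 0.0666% of all. A match of letters is a description and not a measured binding site, and the motif counts were not tested.

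Shown first, because their genes changed with E2 as described below, are the windows of Adam8 (chr7:139992563-139992812, minus strand), Adamts1 (chr16:85803114-85803363, minus strand), Adamts9 (chr6:92943535-92943784, minus strand) and Adamtsl5 (chr10:80348449-80348698, minus strand), written 5′ to 3′ up to the last base before the start, with each GC box in capitals. No such window was found for Adam9, Adamts5 and Adamts16.
Adam8: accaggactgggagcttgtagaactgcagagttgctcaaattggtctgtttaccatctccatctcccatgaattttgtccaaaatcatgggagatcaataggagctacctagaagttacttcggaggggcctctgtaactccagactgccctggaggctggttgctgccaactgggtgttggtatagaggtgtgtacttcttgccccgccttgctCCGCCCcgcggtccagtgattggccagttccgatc
Adamts1: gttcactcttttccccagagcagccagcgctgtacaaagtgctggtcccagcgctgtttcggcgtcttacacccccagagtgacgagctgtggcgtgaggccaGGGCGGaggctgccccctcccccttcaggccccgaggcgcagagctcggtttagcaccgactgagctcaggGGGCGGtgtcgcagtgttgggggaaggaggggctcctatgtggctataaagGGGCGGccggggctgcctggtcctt
Adamts9: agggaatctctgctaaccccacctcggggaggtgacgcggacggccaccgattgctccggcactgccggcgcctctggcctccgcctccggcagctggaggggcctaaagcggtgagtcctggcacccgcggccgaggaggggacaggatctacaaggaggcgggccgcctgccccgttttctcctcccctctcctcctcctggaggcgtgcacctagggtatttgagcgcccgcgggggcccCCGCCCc
Adamtsl5: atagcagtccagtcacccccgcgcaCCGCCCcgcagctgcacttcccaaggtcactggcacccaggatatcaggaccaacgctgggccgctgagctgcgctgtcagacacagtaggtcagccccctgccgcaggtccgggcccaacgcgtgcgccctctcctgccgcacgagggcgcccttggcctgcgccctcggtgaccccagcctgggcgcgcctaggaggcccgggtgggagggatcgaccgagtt
Counted from the start of transcription, the first base of the GC box was at -35 in Adam8, -7 in Adamts9 and -225 in Adamtsl5, and 3 GC boxes began at -147, -76 and -25 in Adamts1. For contrast, the last 100 bases before the start are given for 2 silent genes of the chromosome 9 cluster, the collagenase gene Mmp13 (chr9:7272414-7272513, plus strand) and the stromelysin gene Mmp3 (chr9:7445722-7445821, plus strand), with the AP-1 motif in capitals. It began at -35 in Mmp13 and at -46 in Mmp3.
Mmp13: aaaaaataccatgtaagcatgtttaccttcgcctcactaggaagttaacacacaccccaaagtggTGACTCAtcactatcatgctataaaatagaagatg
Mmp3: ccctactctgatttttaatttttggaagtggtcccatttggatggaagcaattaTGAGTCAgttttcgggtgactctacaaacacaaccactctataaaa

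Transcript of these families came mostly from few genes. The 83 genes summed to 729 to 887 FPKM per sample, or 0.133% to 0.163% of the FPKM total, and Mmp2, Timp1 and Timp2 together gave 46.0% to 51.2% of that sum. Mmp2, which degrades basement membrane collagen and gelatin, was the highest, with 158, 128 and 199 FPKM in DMSO replicates 1 to 3, 146, 158 and 242 FPKM in E2, and 141, 138 and 202 FPKM in 4OHT. Replicate 3 was the highest in each condition, and the conditions overlapped. Mmp2 ranked 494th of the 11339 expressed rows. Mmp14, the membrane-type enzyme that activates the Mmp2 precursor together with TIMP2, was steady at 37.4 to 45.9 FPKM over the 9 samples. The inhibitors lay in a similar range. Timp1 lay between 109 and 147 FPKM and Timp2 between 80.1 and 108 FPKM. The sum of the Timp genes over the sum of the Mmp genes was 0.876 to 1.41, lowest in E2 replicate 3 and highest in DMSO replicate 2. Adamts1 was the highest of the ADAMTSs and Adam9 the highest of the ADAMs.

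**Figure D1:**
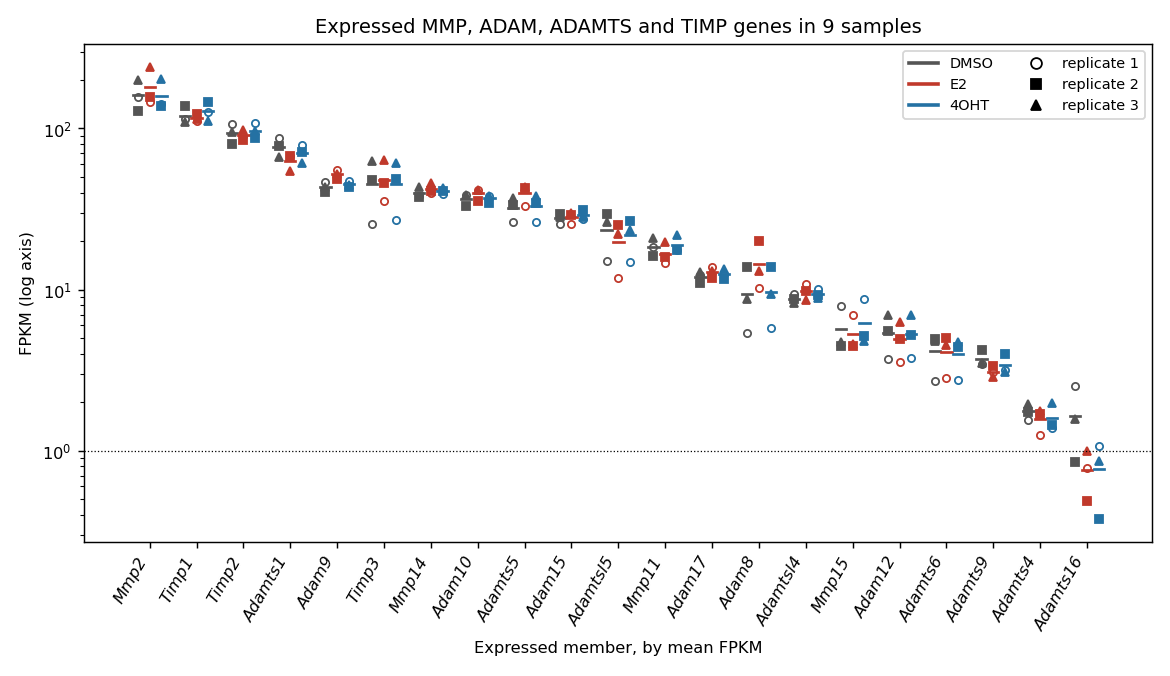
FPKM (log axis) of the 21 expressed genes in each of 9 samples, ordered by mean level, with color for the condition, symbol for the replicate number and a short bar for the mean of 3 samples; the dotted line is 1 FPKM. Levels ran from Mmp2, at 128 to 242 FPKM, to Adamts16, at 0.376 to 2.52 FPKM, and Timp3, Adamtsl5, Adam12 and Adamts6 were lowest in replicate 1 in each condition.

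The first question of the design is what E2 does to these genes against the solvent. With the replicate number in the model, 7 of the 21 tested genes (33.3%) passed the threshold (limma on log2(FPKM + 1), adjusted p under 0.05 over 11096 gene rows), against a background of 19.5% of all rows tested. There were 3 higher in E2, Adam8, Adam9 and Adamts5, where 12.4% of all rows were higher, and 4 lower, Adamts1, Adamts9, Adamts16 and Adamtsl5, where 7.08% were lower. None of the 4 Mmp genes and none of the 3 Timp genes passed. The median difference was -0.01 over the 21 genes and -0.00 over all rows on the log2(FPKM + 1) scale, on which the differences of genes of few FPKM are understated. Without the replicate number in the model 0 of the 21 passed, against 0.613% of all rows. Each call below thus rests on comparing samples of the same number. At an unadjusted p under 0.05 by limma, 2 of 21 differed in that model, as did 1213 of all 11096 rows. With the replicate number, 12 of 21 differed at an unadjusted p under 0.05, as did 3833 of the 11096 rows. Leaving out replicate 3 in all conditions lowered the count from 7 to 4, with the calls of Adamts9, Adamts16 and Adamtsl5 lost. Of the 2166 rows called over all genes 63.7% were higher in E2, but 47.1% after scaling the samples to 1 upper quartile and 47.6% after scaling to 1 total, while the 3 higher and 4 lower genes here stayed at those counts under both.

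Adam8, a membrane protease known from leukocytes and tumor cells that cleaves adhesion molecules, rose most. It had 5.36, 13.9 and 8.74 FPKM in DMSO replicates 1 to 3 and 10.2, 20.1 and 13.1 FPKM in E2. Each E2 sample was above the DMSO sample of its number, by 1.45 to 1.91 times, although the groups overlapped because replicate 2 was high in both. The difference was 0.62 (SE 0.0645, 95% interval 0.47 to 0.77, limma adjusted p = 0.000389), and the adjusted p without the replicate number was 0.596. Adam9, a widely expressed membrane protease, had 46.8, 40.3 and 43.1 FPKM in DMSO and 55.4, 48.4 and 52.3 FPKM in E2. Its groups did not overlap, as in 15.3% of all rows, and the 3 ratios within a number were close, 1.19 to 1.21. The difference was 0.26 (SE 0.0339, limma adjusted p = 0.00135), with an adjusted p of 0.249 without the replicate number.

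The other membrane proteases moved less. Adam10, which sheds Notch receptors and cadherins, had 38.5, 33.0 and 38.5 FPKM in DMSO and 41.8, 35.7 and 41.3 FPKM in E2. The E2 sample was higher in 3 of 3 numbers, but the difference of 0.11 (SE 0.0353) had a limma adjusted p of 0.0633. Adam17, which releases tumor necrosis factor and most ligands of the epidermal growth factor receptor, lay between 10.97 and 13.7 FPKM in all samples and differed by 0.09 (limma adjusted p = 0.164), again in the same direction in 3 of 3 numbers. Adam15 differed by 0.01 (95% interval -0.09 to 0.11). Adam12 was lower in E2 in 3 of 3 numbers, by -0.11 (limma adjusted p = 0.131).

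The secreted proteoglycanases split, with Adamts5 higher and Adamts1 lower. Adamts5, known as a main aggrecanase of cartilage that also cuts versican, had 26.3, 33.3 and 36.9 FPKM in DMSO and 33.0, 42.9 and 43.0 FPKM in E2. Each E2 sample was 1.17 to 1.29 times its DMSO counterpart, and the groups overlapped through replicate 1. The difference was 0.30 (SE 0.0403, limma adjusted p = 0.00154). Adamts1, which cuts versican and aggrecan and is known from the ovulating follicle, had 87.5, 77.5 and 66.4 FPKM in DMSO and 67.2, 67.0 and 54.4 FPKM in E2. It was lower in E2 in 3 of 3 numbers, at 0.769 to 0.865 of the DMSO value, while DMSO replicate 3 lay below 2 of the E2 samples. The difference was -0.29 (SE 0.0397, limma adjusted p = 0.00165). The adjusted p without the replicate number was 0.575 for Adamts5 and 0.479 for Adamts1. These genes that moved in opposite directions are neighbours on chromosome 16, with 53.1 kb and 0 protein-coding genes between them in the GENCODE annotation.

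Adamts9, a versican-cleaving protease, had 3.47, 4.19 and 3.50 FPKM in DMSO and 3.09, 3.35 and 2.85 FPKM in E2. The groups did not overlap, as in 15.3% of all rows. The difference was -0.20 (SE 0.0524, limma adjusted p = 0.0282), with an adjusted p of 0.519 without the replicate number. The call held in 11 of 24 alternative settings, among them 4 of the 12 that left out a sample or a replicate number. Adamts4, the other expressed aggrecanase, was at 1.25 to 1.95 FPKM and differed by -0.11 (limma adjusted p = 0.297).

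Adamts16, a protease with roles in kidney and gonad that also cuts fibronectin, was the least abundant expressed gene. It had 2.52, 0.852 and 1.58 FPKM in DMSO and 0.785, 0.486 and 0.994 FPKM in E2. The ratio within a number was 0.312, 0.571 and 0.629, so the drop was deepest in replicate 1, and replicate 2 was lowest in each condition. The difference was -0.56 (SE 0.118, limma adjusted p = 0.0128), with an adjusted p of 0.450 without the replicate number. The plain log2 ratio of the mean FPKM was -1.13. The difference was -0.34 without replicate 1 and -0.96 with a pseudocount of 0.1. Of the 3 samples that carried Adamts16 past the expression limit 2 were DMSO samples, so its place among the tested genes is not independent of its direction. Adamts6, whose closest relative is Adamts10, differed by -0.01 (95% interval -0.13 to 0.12).

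Several ADAMTS-like proteins are known to bind fibrillin. Adamtsl5 had 15.0, 29.3 and 26.1 FPKM in DMSO and 11.8, 25.1 and 22.0 FPKM in E2, lower in E2 in 3 of 3 numbers at 0.789 to 0.856 of DMSO. Replicate 1 was lowest in both groups and the groups overlapped. The difference was -0.26 (SE 0.0472, limma adjusted p = 0.00661), and the adjusted p without the replicate number was 0.802. Adamtsl4 went the other way in 3 of 3 numbers, by 0.13 (limma adjusted p = 0.0626).

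Neither the matrix metalloproteinases nor their inhibitors passed the threshold with E2. Mmp2 differed by 0.16 (95% interval -0.01 to 0.32, limma adjusted p = 0.155), with E2 above DMSO in replicates 2 and 3 and below it in replicate 1. It passed in 3 alternative settings, each of which left out a sample of replicate 1, namely at 0.26 without DMSO replicate 1 (limma adjusted p = 0.0165), 0.25 without E2 replicate 1 (0.0273) and 0.29 without replicate 1 in all conditions (0.0145). Mmp14 differed by 0.09 (limma adjusted p = 0.145). Mmp11, a stromelysin that is activated inside the cell by furin, had 18.4, 16.3 and 20.8 FPKM in DMSO and 14.6, 15.8 and 19.7 FPKM in E2, a difference of -0.14 (limma adjusted p = 0.101). Mmp15 differed by -0.07 (limma adjusted p = 0.432). The 95% intervals were -0.17 to 0.08 for Timp1, -0.19 to 0.10 for Timp2 and -0.07 to 0.34 for Timp3.

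**Figure D2:**
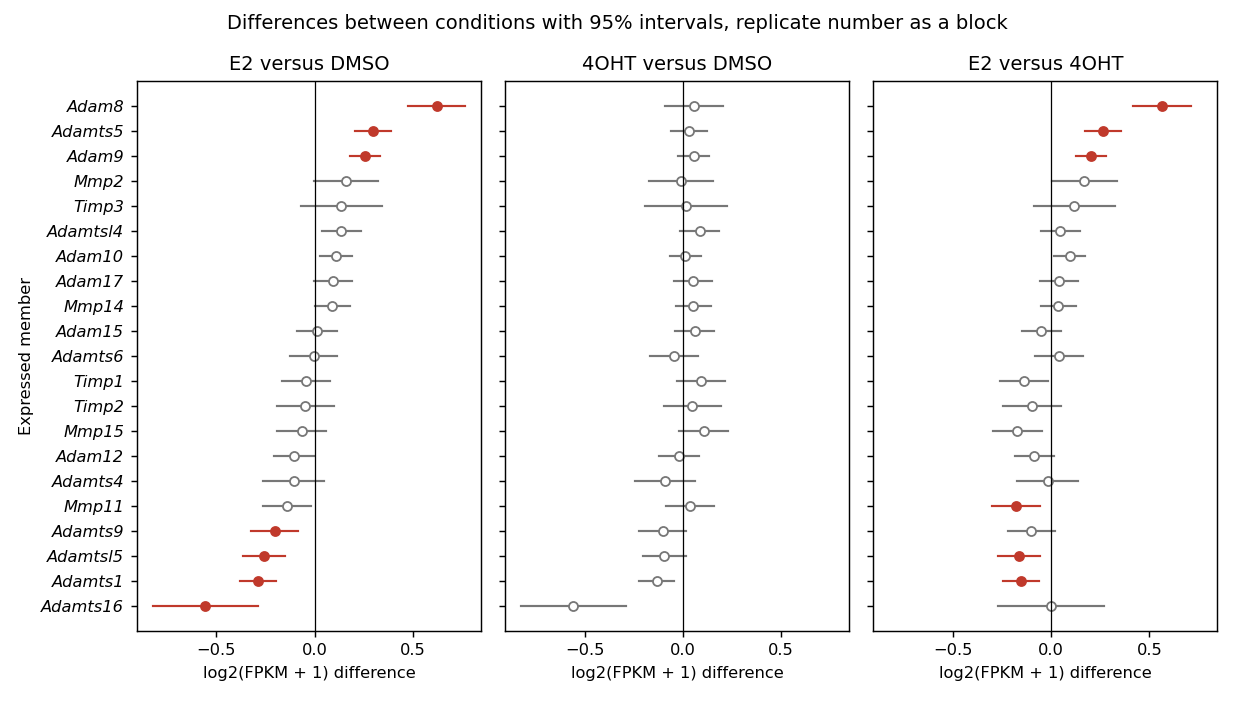
Difference in log2(FPKM + 1) of each of the 21 expressed genes in the comparisons of E2 with DMSO, of 4OHT with DMSO and of the ligands, with 95% intervals from the model that holds the replicate number; filled red points had an adjusted p under 0.05. With E2 versus DMSO 3 genes lay above 0 and 4 below, 0 passed with 4OHT versus DMSO, and 6 passed with E2 versus 4OHT.

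The next question is whether 4OHT alone acts on these genes. None of the 21 genes passed with 4OHT against DMSO, while 0.0721% of all rows passed. At an unadjusted p under 0.05 by limma, 2 of the 21 differed, as did 1541 of all 11096 rows. Without the replicate number 0 passed, against 0% of all rows. In that model 1 of the 21 and 279 of the 11096 rows had an unadjusted p under 0.05. The lowest p was that of Adamts16, with 1.06, 0.376 and 0.86 FPKM in 4OHT. Each of the 3 samples with 4OHT was below the DMSO sample of its number, at 0.423 to 0.544 of it, and the difference was -0.56 (95% interval -0.83 to -0.29, limma adjusted p = 0.180), or -1.11 as the plain log2 ratio of the mean FPKM. The difference is as large as with E2. The same unadjusted limma p of 0.00122 stays above the threshold here because fewer rows had so low a p with 4OHT than with E2. Adamts1 had 78.5, 71.1 and 60.8 FPKM in 4OHT, each between the DMSO and the E2 sample of its number, and differed from DMSO by -0.13 (95% interval -0.22 to -0.04, limma adjusted p = 0.287).

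The genes that rose with E2 were near the solvent level with 4OHT. Adam8 had 5.77, 13.8 and 9.35 FPKM, a difference of 0.06 (95% interval -0.09 to 0.20). Adam9 had 47.6, 43.2 and 44.4 FPKM, a difference of 0.05 (95% interval -0.02 to 0.13). For Adamts5, with 26.3, 34.7 and 38.0 FPKM, the difference was 0.03 (95% interval -0.06 to 0.12). The intervals for Adam8 and Adamts5 thus end below the lower bound of their E2 intervals, 0.47 and 0.20, and that of Adam9 ends at 0.13 against 0.18. Over the 21 genes the median difference was 0.03, the same as over all rows.

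In the direct comparison of E2 with 4OHT, 6 of 21 genes (28.6%) passed, against 22.9% of all rows. Without the replicate number 0 passed, against 0.36% of all rows. In that model 1 of the 21 had an unadjusted p under 0.05 by limma, as did 1313 of all 11096 rows. There were 3 higher in E2 (background 11.2%) and 3 lower (background 11.7%). The relative depths overlapped, at 0.838 to 1.068 in E2 and 0.821 to 0.923 in 4OHT, and depth was not tested as a factor. This comparison shares its E2 samples with the first. Adam8 was 1.40 to 1.78 times higher in E2 within a number, with a difference of 0.56 (SE 0.0645, limma adjusted p = 0.000846). Adam9, whose groups did not overlap, as in 18.5% of all rows, differed by 0.20 (limma adjusted p = 0.00505). Adamts5 differed by 0.26 (limma adjusted p = 0.00344). All 3 were higher in E2 in 3 of 3 numbers. Of all rows called 48.8% were higher in E2, 45.8% after scaling to 1 upper quartile and 59.7% after scaling to 1 total. Under both scalings 4 of the 21 genes passed as higher, Adam10 in addition. As lower, 1 passed after scaling to 1 upper quartile and 0 after scaling to 1 total.

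Lower in E2 than in 4OHT were Adamts1, by -0.15 (limma adjusted p = 0.0268), Adamtsl5, by -0.16 (limma adjusted p = 0.0389), and Mmp11, by -0.18 (limma adjusted p = 0.0445). Mmp11 had 17.7, 17.6 and 21.7 FPKM in 4OHT, above E2 in 3 of 3 numbers and above DMSO in 2 of 3. These 3 calls lay close to the threshold and held in 11, 5 and 6 of 24 alternative settings. The count of 6 fell to 3 without DMSO replicate 3, 4OHT replicate 1, 4OHT replicate 2 or all of replicate 3. Mmp15 followed with -0.17 (limma adjusted p = 0.0536). Adamts16 had the same mean with both ligands, 0.755 ± 0.255 FPKM with E2 and 0.767 ± 0.354 FPKM with 4OHT (SD, n = 3), but its interval, -0.27 to 0.27, is wide. Adamts9 differed by -0.10 (95% interval -0.22 to 0.02). For the inhibitors the differences were -0.14 for Timp1 (limma adjusted p = 0.0945), -0.10 for Timp2 and 0.12 for Timp3. Timp1 passed as lower in E2 in 3 settings: at -0.21 without E2 replicate 3 (limma adjusted p = 0.0267), -0.19 without 4OHT replicate 3 (0.0444) and -0.22 without all of replicate 3 (0.0487). Mmp2 differed by 0.17 (limma adjusted p = 0.119) and passed in the same 3 settings as against DMSO.

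**Figure D3:**
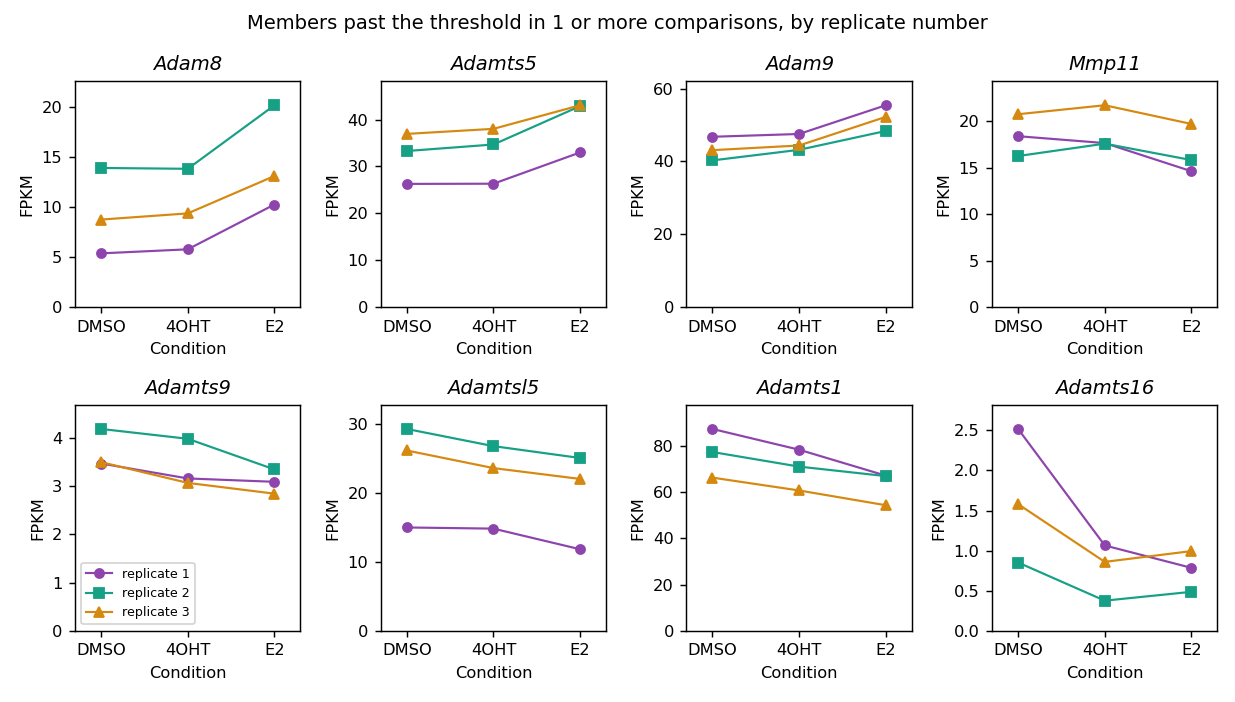
FPKM of the 8 genes that passed the threshold in 1 or more comparisons, in DMSO, 4OHT and E2, with a line for each replicate number; the vertical axes start at 0. Adam8, Adam9 and Adamts5 were highest in E2 in each of the 3 numbers, Adamts1, Adamts9 and Adamtsl5 were lowest in E2 in each, and Adamts16 was lower with both ligands than in DMSO.

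Differences between replicate numbers were larger than those between treatments for most of these genes. The range of the 3 replicate-number means on the log2(FPKM + 1) scale exceeded the range of the 3 condition means in 20 of 21 genes (95.2%), against 66.7% of all tested rows. The exception was Adam9, with ranges of 0.18 and 0.26. The median range by number was 0.31 for the 21 genes and 0.17 for all rows, while that by condition was 0.14 and 0.12. Adam8 (1.09), Timp3 (1.08), Adamtsl5 (0.92) and Adam12 (0.73) varied most by number. Timp3, the inhibitor that stays bound to the matrix, had 25.4, 48.1 and 62.9 FPKM in DMSO, 35.3, 45.8 and 63.4 FPKM in E2 and 26.9, 48.7 and 60.8 FPKM in 4OHT. It was lowest in replicate 1 and highest in replicate 3 in every condition.

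The replicate numbers did not set the genes apart in 1 direction. The mean of replicate 1 was the lowest of the 3 in 9 genes, among them Adam8, Adam12, Adamts5, Adamts6, Adamtsl5 and Timp3, the highest in 7, among them Mmp15, Adamts1 and Adamts16, and between the others in 5. Mmp15 had 7.90, 6.93 and 8.69 FPKM in replicate 1 of DMSO, E2 and 4OHT and 4.47 to 5.18 FPKM in the other samples. With E2 against DMSO 7 genes were higher and 8 lower in all 3 numbers, 15 of 21 in all, where 53% of all rows kept 1 direction. With 4OHT against DMSO 8 were higher and 4 lower in all 3 numbers (46.2% of all rows kept 1 direction), and with E2 against 4OHT 5 and 6 (55.9%).

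**Figure D4:**
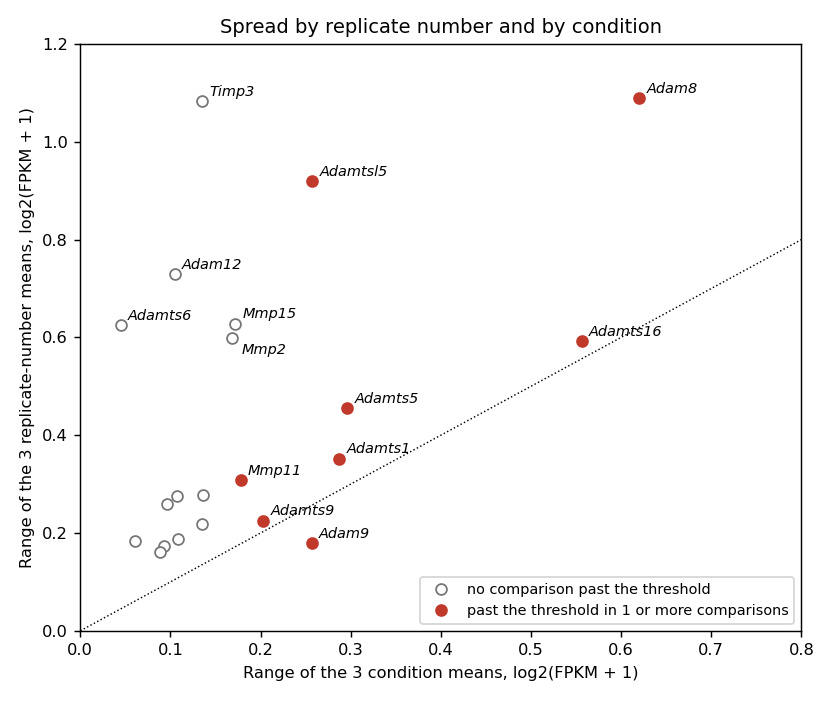
Range of the 3 replicate-number means against the range of the 3 condition means, both in log2(FPKM + 1), for the 21 expressed genes; filled points passed the threshold in 1 or more comparisons and the dotted line marks equal ranges. Of the 21 points 20 lie above the line, Adam9 lies below it, and Adam8 and Timp3 have the largest range by number, 1.09 and 1.08.

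Genes that act with or on these proteases were counted in fixed lists, with 0 passing in any list with 4OHT against DMSO. Of the 8 tested partners of ADAM10 and ADAM17, 3 rose with E2 and 2 fell. The tetraspanins Tspan33 (0.46, limma adjusted p = 0.0012), Tspan17 (0.31, 0.0022) and Tspan14 (0.20, 0.0241), which guide ADAM10 to the cell surface, were higher. Tspan15, of the same group, was lower (-0.29, limma adjusted p = 0.0418), as was Rhbdf2 (-0.16, 0.0323), a chaperone of ADAM17. Tspan15 had 3.24, 0.842 and 0.753 FPKM in DMSO replicates 1 to 3 and 1.97, 0.532 and 0.647 FPKM in E2. It reached 1 FPKM only in replicate 1 of each condition, so replicate 1 alone brought it into the test. Against 4OHT, 3 of the 8 partners were higher in E2 and 1 lower, where 11.2% of all rows were higher and 11.7% lower. The median difference over the list with E2 against DMSO was -0.04, with -0.00 over all rows, and 19.5% of all rows passed.

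Of 21 tested membrane proteins known to be shed by ADAMs, 4 rose with E2 and 7 fell. Over all rows 12.4% rose and 7.08% fell. The largest changes were in the adhesion molecule Alcam, at 0.67 (limma adjusted p = 0.0001), the receptor gene Il6ra, at 0.46, the growth factor gene Ereg, at -0.31, the chemokine gene Cxcl16, at 0.30, the adhesion molecule L1cam, at -0.30, and the chemokine gene Cx3cl1, at -0.29. In Alcam the FPKM was 12.7, 9.52 and 7.89 in DMSO and 21.2, 16.1 and 12.4 in E2. Ereg lay near the expression limit, at 0.484, 1.91 and 0.960 FPKM in DMSO and 0.303, 1.01 and 0.702 FPKM in E2 (limma adjusted p = 0.0358). Cxcl16 averaged 1.41 FPKM in DMSO and 1.97 FPKM in E2 (limma adjusted p = 0.00817). The list's median was 0.01. Against 4OHT 3 of the 21 were higher in E2 and 5 lower, where 11.2% of all rows were higher and 11.7% lower.

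Among 6 tested genes of plasminogen activation, the pathway that activates several matrix metalloproteinases, 2 rose with E2. Of all rows tested 12.4% rose with E2 and 19.5% passed in either direction. Plau, the urokinase gene, had 107, 109 and 144 FPKM in DMSO and 165, 160.3 and 216 FPKM in E2, a difference of 0.58 (limma adjusted p = 0.0001), and Anxa2, a plasminogen-binding protein, differed by 0.16 (0.0286). Of 4 tested proprotein convertases, which activate many of these enzymes, 1 rose, Pcsk6 (0.39, limma adjusted p = 0.0021). None of the 6 tested inhibitors and cofactors, of the 2 other metzincins or of the 4 ADAMTS substrates passed with E2 against DMSO. Among the substrates Fn1 was not tested, since 5 of its 9 values were exact zeros and the rest were 800.3 to 1117 FPKM. Without the replicate number none of the genes in these lists passed in any comparison.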

How the data were processed

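Directional 50 bp single-end libraries of polyadenylated RNA were made from 9 samples. The authors aligned the reads to mm10 with TopHat (2.0.8b) and deposited FPKM values per gene from Cufflinks and Cuffdiff (2.1.1) with a UCSC annotation. Each deposited file holds 1 sample. From here on the work was done anew in R 4.3.3 (limma 3.58.1) and Python 3.11.15.

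The FPKM values were taken as log2(FPKM + 1). Rows were kept where 3 or more samples reached 1 FPKM (11339). Cufflinks can fail on a gene and list 0, so 243 of these rows with an exact 0 beside a value of at least 1 FPKM in the same condition stayed out, which left 11096. A limma model with a mean-variance trend held condition and replicate number over all 9 samples, and p-values were adjusted by Benjamini-Hochberg over all rows tested. The numbers were used as a block since the conditions were to be compared paired by replicate. Samples of 1 number deviated together: over 9 pairs of samples the correlation of deviations from the condition means was 0.523 to 0.828. Between replicate 1 and replicates 2 or 3 of another condition it was -0.646 to -0.418, and between replicates 2 and 3 it was -0.0222 to 0.0642. The deviations within a condition sum to 0, so positive values within a number force negative ones between numbers on balance. The values between numbers thus add nothing on the pairing. The model was tested on simulated data. Read totals were not used here, depth was taken only relative to 1 sample, and no counting interval is given. Gene positions are from GENCODE (GRCm38) and promoter windows from RefSeq.

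Named are genes past the threshold in any comparison, the 3 most abundant of each family, Adamts16, which the study names, and called genes of the pathway lists, at most the 6 largest changes of a list. Others are named to account for the classes. The gene families and lists were chosen with earlier results of these data known. Alternatives were the model without the replicate number, other treatments of the listed zeros, another pseudocount, filter, scaling and threshold, limma without the trend, only the 6 samples compared, and each sample or number left out.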

Additional observations from a re-analysis of the deposited data

How the results depend on the processing

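None of the differences past the threshold changed direction under the alternatives run. The number of genes past the threshold was 7 with E2 against DMSO and 6 with E2 against 4OHT with the replicate block, and 0 and 0 with no replicate block, also when listed zeros were kept as values in that model (0 and 0, an alternative chosen after seeing the data). The block changed no call with 4OHT against DMSO, where the count was 0 throughout. At an adjusted p under 0.01 the count for E2 against 4OHT was 3. With a sample or a replicate number left out it was 4 to 8 for E2 against DMSO, 3 to 7 for E2 against 4OHT and 0 to 0 for 4OHT against DMSO. With E2 against DMSO, Adam8, Adam9, Adamts1 and Adamts5 each passed in 22 of 24 settings, missing only in the 2 without the block. Adamtsl5 passed in 21 of 24 and Adamts16 in 19 of 23. With E2 against 4OHT Adam8 and Adamts5 passed in 22 of 24 and Adam9 in 21 of 24. Expressed genes numbered 20 at 1 FPKM in all 9 samples and 26 at 0.5 FPKM in 3, against 21. With 3 samples a condition and FPKM in place of read counts, small differences in genes of a few FPKM, such as Adamts16 and Adamts4, are the least certain.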
